A study of Saccharomyces cerevisiae with 12 samples.

Results

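The genes described here encode 10 factors that travel with RNA polymerase II during transcription elongation in Saccharomyces cerevisiae. They are taken by name, as the subunits of Spt4-Spt5, Spt6, FACT and the Paf1 complex, by a rule that holds no array value but was drawn up with earlier results of these data known. They are *SPT4* (YGR063C), *SPT5* (YML010W), *SPT6* (YGR116W), *SPT16* (YGL207W), *POB3* (YML069W), *PAF1* (YBR279W), *CTR9* (YOL145C), *LEO1* (YOR123C), *CDC73* (YLR418C) and *RTF1* (YGL244W). All 10 were measured, by 1 probe set each, among 5449 genes. In the gene models of RefSeq assembly R64 their coding lengths ran from 309 nucleotides (*SPT4*) to 4356 nucleotides (*SPT6*), and 0 of the 10 lay next to another of the 10.

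After RNA polymerase II leaves a promoter it has to pass nucleosomes and stay on its template until the end of the gene. Spt5 with its small partner Spt4 binds the elongating polymerase and helps it to stay in contact with DNA, Spt6 is a histone chaperone that puts nucleosomes back behind it, and FACT, made of Spt16 and Pob3, loosens and rebuilds nucleosomes in its path. The Paf1 complex binds the same polymerase and is needed for histone ubiquitylation and methylation along transcribed genes. Elongation overwinds the DNA ahead of the polymerase and underwinds it behind, and topoisomerases I and II (Top1p and Top2p) remove this supercoiling.

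The study asked how loss of these topoisomerases affects transcript levels across the genome. Polyadenylated RNA was measured on 12 Affymetrix Yeast Genome 2.0 arrays, 3 biological replicates for each of 4 isogenic strains of the laboratory background W303a. The strains were the wild-type (W303), *top1Δ* (W303 top1::natr), *top2ts* (W303 top2-1) and *top1Δtop2ts* (W303 top1::natr top2-1). All of them, the wild-type included, spent 90 min at 25°C in rich medium (YPD) with α-factor, a pheromone that stops a cells in G1, followed by 90 min at 37°C, a temperature that inactivates Top2p of the top2-1 strains. Top1p is lost by deletion, whereas the *TOP2* transcript is still made in the strains with the temperature-sensitive enzyme, so its signal does not check that label. Whether each strain is represented by 1 clone or several was not given in the sources used here, and the same 3 wild-type arrays served all comparisons.

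The values are MAS5 signals on a linear scale, whose precision is limited by the number of arrays. *TOP1* gave signals of 731 to 1196 in the wild-type arrays, 0.8 to 1.2 in *top1Δ* and 0.2 to 9.5 in *top1Δtop2ts*, which fits the deletion labels. The summed signal of the 6 markers of a cells ran from 35591 to 71110 over all 12 arrays and that of the 4 markers of α cells from 672 to 1674, so the markers of the labelled mating type were present on every array. Of the α-cell markers *MF(ALPHA)1* was at 4.6 to 30.5 in wild-type and 93.8 to 140.9 in *top1Δtop2ts*, and none of the 4 was at 0 in any strain. Poly-A spike-in RNAs, which were added to equal numbers of cells before extraction, had mean log2 signals of 9.88 to 10.01 on the 4 arrays of replicate 2, whereas those of replicate 1 (10.89 to 10.99) and replicate 3 (10.85 to 11.08) were brighter. The replicate 2 arrays were therefore dimmer in every strain, and their spike-ins by about the same step. In the median log2 signal over all genes the step was smaller in *top1Δ* than in the other strains. Replicates 1, 2 and 3 stood at 10.17, 9.76 and 10.25 in *top1Δ* and at 10.65, 9.73 and 10.38 in wild-type. One array stood apart in a spike-in ratio: in *top1Δtop2ts* replicate 3 the 3′ probe set of the spike-in phe was 0.11 below its 5′ probe set on the log2 scale, against 0.90 to 1.52 above it on the other arrays. The same ratio for the yeast transcript TDH1 was 0.23 on this array and 0.48 to 1.34 on the others, while that for ACT1 was 0.61, compared with -0.09 to 0.57, so the transcripts of the sample did not both deviate in one direction. Over all genes this array was also the least like the others. Its log2 signals had a mean Pearson correlation of 0.9299 with the other arrays, next to 0.9436 for *top1Δtop2ts* replicate 1. Its highest correlation with any array was 0.9753, against 0.9846 or more for each of the others. The calls of the 10 genes in *top1Δtop2ts* are given with and without this array. In G1-arrested bulk samples fewer cells of a kind and less RNA per cell cannot be told apart.

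The level of each elongation gene is given first on the deposited scale. *SPT4* had signals of 2406, 1102 and 1915 on the wild-type arrays, 1833, 1312 and 1963 on those of *top1Δ*, 2228, 1153 and 1846 on those of *top2ts* and 1826, 1146 and 1319 on those of *top1Δtop2ts*. *SPT5*, its partner, had 1417, 941 and 1326 on the wild-type arrays, 1334, 1138 and 1574 on those of *top1Δ*, 1168, 579 and 963 on those of *top2ts* and 1277, 832 and 1382 on those of *top1Δtop2ts*. *SPT6* had 2347, 1254 and 2199 on the wild-type arrays, 1844, 1464 and 1843 on those of *top1Δ*, 1690.1, 1065 and 1357 on those of *top2ts* and 1184, 784 and 1546 on those of *top1Δtop2ts*. In all 3 genes the replicate 2 array of wild-type was the lowest wild-type array, and the strains overlapped.

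*SPT16* encodes the large subunit of FACT and had signals of 4277, 1949 and 3322 on the wild-type arrays, 3169, 2187 and 2678 on those of *top1Δ*, 3198, 1639 and 2049.8 on those of *top2ts* and 2033, 1429 and 2649 on those of *top1Δtop2ts*. *POB3*, which encodes the small subunit, had 3438, 1616 and 2957 on the wild-type arrays, 2745, 1897 and 2299 on those of *top1Δ*, 3036, 1461 and 2124 on those of *top2ts* and 1966, 1371 and 2214 on those of *top1Δtop2ts*. In both genes the *top1Δtop2ts* arrays of replicates 1 and 2 lay below the wild-type array of the same number, and so did the array of replicate 3, but wild-type replicate 2 was below 2 of the 3 *top1Δtop2ts* arrays.

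Among the Paf1 complex genes, *PAF1*, which encodes the subunit that names the complex, had signals of 1955, 1300.2 and 1718 on the wild-type arrays, 1507, 1357 and 1479.7 on those of *top1Δ*, 1860.3, 1001 and 1569.5 on those of *top2ts* and 1379.8, 895 and 1292 on those of *top1Δtop2ts*. *CTR9*, whose product carries repeats that hold the complex together, had 1382, 681 and 1088 on the wild-type arrays, 1211, 730.4 and 1045 on those of *top1Δ*, 1106, 368 and 814 on those of *top2ts* and 859.8, 551 and 404 on those of *top1Δtop2ts*. *LEO1*, whose product pairs with Paf1, had 1747, 855 and 1394 on the wild-type arrays, 1209, 1063 and 1254 on those of *top1Δ*, 1415, 699 and 1129 on those of *top2ts* and 1123, 622 and 952 on those of *top1Δtop2ts*. The 3 genes shared the dim replicate 2, and *CTR9* had its lowest *top1Δtop2ts* value in replicate 3, the array that stood apart.

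*CDC73*, whose product helps to attach the complex to the polymerase, had signals of 2034, 1215 and 1749 on the wild-type arrays, 1579.8, 1349.7 and 1733 on those of *top1Δ*, 1815, 1091 and 1407 on those of *top2ts* and 960.0, 713 and 1539 on those of *top1Δtop2ts*. *RTF1*, whose product is the subunit most directly tied to histone ubiquitylation, had 2862, 1582 and 2656 on the wild-type arrays, 2519.5, 2176 and 2684 on those of *top1Δ*, 2142, 1051 and 1716 on those of *top2ts* and 2039, 1448 and 1612 on those of *top1Δtop2ts*. *CDC73* went the other way from *CTR9*, with its highest *top1Δtop2ts* value in replicate 3.

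**Figure D1:**
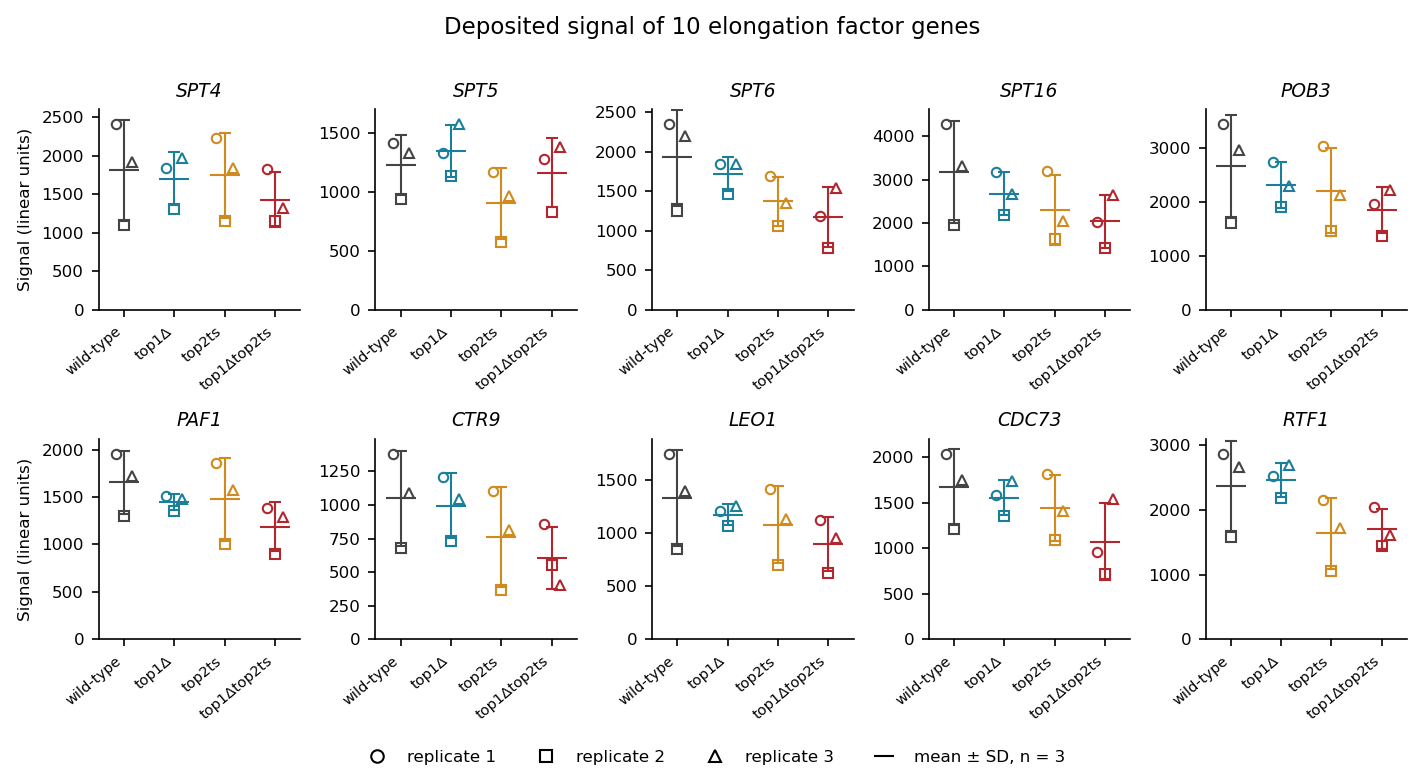
Deposited signal (linear units) of the 10 genes in each strain, 1 panel per gene, with circles, squares and triangles for replicates 1, 2 and 3 and bars for the mean ± SD (n = 3 arrays). The squares of replicate 2 are the lowest of each strain except for *CTR9* in *top1Δtop2ts*, and no panel has a mutant whose 3 arrays all lie below wild-type.

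By mean log2 signal on the deposited scale, the wild-type was the highest strain for 8 of the 10 genes and *top1Δ* for *SPT5* and *RTF1*. The lowest strain was *top1Δtop2ts* for 8 genes and *top2ts* for *SPT5* and *RTF1*. In 0 cases did the arrays of 2 neighbouring strains in this order stay apart, on a scale that holds the step of replicate 2. After each array was scaled to its spike-in RNAs, as described below, 4 neighbouring pairs stayed apart. These were *top2ts* and *top1Δtop2ts* for *SPT5*, *LEO1* and *CDC73*, and wild-type and *top2ts* for *RTF1*. The share over all genes was not counted for this order.

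In *top1Δtop2ts*, all 10 genes had a log2 change below 0 on the deposited scale, but none passed the test. The changes were -0.29 for *SPT4*, -0.09 for *SPT5*, -0.72 for *SPT6*, -0.62 for *SPT16*, -0.49 for *POB3*, -0.48 for *PAF1*, -0.81 for *CTR9*, -0.55 for *LEO1*, -0.68 for *CDC73* and -0.45 for *RTF1*, each with a standard error of 0.39 (n = 3 arrays against 3). limma called 0 of the 10 lower (adjusted p = 0.129 for *CTR9* to 0.877 for *SPT5*), where 15.1% of all genes were called lower and 1.25% higher. At an unadjusted p under 0.05 only *CTR9* was past the line (1 of 10, against 34.2% of all genes), and its 95% interval ran from -1.58 to -0.04. Without *top1Δtop2ts* replicate 3 limma again called 0 of the 10 (10.3% of all genes lower), *CTR9* stood at -0.55 with an unadjusted p of 0.222, and *SPT6* (-0.95) and *CDC73* (-0.98) were past the unadjusted line (2 of 10, against 30.1% of all genes). With all arrays, the intervals of *SPT6* (-1.49 to 0.04) and *SPT5* (-0.86 to 0.68) both included 0. The median over the 10 genes was -0.52 and that over all genes -0.54, so the elongation genes lay where the typical gene lay. Single arrays moved both medians together, to -0.83 and -0.78 without wild-type replicate 2, to -0.34 and -0.36 without wild-type replicate 1 and to -0.32 for both without *top1Δtop2ts* replicate 2.

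On the deposited scale 0 of the 10 genes had all 3 *top1Δtop2ts* arrays below all 3 wild-type arrays, against 28.7% of all genes. Within same-numbered pairs, 28 of 30 differences from wild-type were below 0, compared with 83.3% over all genes. In all 3 pairs 8 of the 10 genes were below 0, compared with 72.4% of all genes. The exceptions were *SPT4* in replicate 2 (0.06) and *SPT5* in replicate 3 (0.06).

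With the replicate number as a block, which takes out the step that the strains share, limma called 8 of the 10 genes lower in *top1Δtop2ts*, all but *SPT4* and *SPT5*. This stands beside 62.7% of all genes called lower in the same fit. The log2 changes and their adjusted p were -0.72 for *SPT6* (0.00134), -0.62 for *SPT16* (0.00731), -0.49 for *POB3* (0.0176), -0.48 for *PAF1* (0.0129), -0.81 for *CTR9* (0.0043), -0.55 for *LEO1* (0.0088), -0.68 for *CDC73* (0.00427) and -0.45 for *RTF1* (0.0293). *SPT4* (0.123) and *SPT5* (0.634) did not pass. Without *top1Δtop2ts* replicate 3 the same fit called 7 of the 10, *RTF1* being lost, against 61.0% of all genes. Leaving out wild-type replicate 2 from the fit without a block gave 2 calls, *SPT6* and *CTR9*, against 34.2%.

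Scaling each array to its spike-in RNAs took out the step of the spike-ins, and the values are then relative to the number of cells harvested. The replicates of *top1Δ* were not brought level. Replicate 2, the lowest *top1Δ* array of each of the 10 genes before scaling, was the highest of each after it. The SD of the *top1Δ* signals rose for all but *CTR9*, for *SPT6* from 219 to 518. *SPT6* had scaled signals of 1888, 2047 and 1834 for wild-type, 1443, 2366 and 1498 for *top1Δ*, 1370.5, 1722 and 1136 for *top2ts* and 897, 1176 and 1100.3 for *top1Δtop2ts*. Its 3 *top1Δtop2ts* arrays all lay below the wild-type arrays. With this scaling the log2 change of *SPT6* was -0.87 ± 0.25 (SE), a fold of 0.547 (limma, adjusted p = 0.00252). *SPT16* had scaled signals of 3439.8, 3181 and 2771 for wild-type, 2481, 3534 and 2176 for *top1Δ*, 2593, 2649 and 1716 for *top2ts* and 1541, 2144 and 1886 for *top1Δtop2ts*. Again the *top1Δtop2ts* arrays did not overlap with wild-type, and the log2 change was -0.76 ± 0.25 (adjusted p = 0.00779). *POB3* went from 2765, 2638 and 2466 in wild-type to 1490.0, 2056 and 1576 in *top1Δtop2ts*, a change of -0.63 ± 0.24 (0.0225 from limma).

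The subunits of the Paf1 complex gave the same picture with spike-in scaling, with more scatter. *CTR9* had scaled signals of 1111, 1111 and 907 for wild-type, 948, 1180.2 and 849 for *top1Δ*, 897, 594 and 681 for *top2ts* and 652, 826 and 287 for *top1Δtop2ts*. *CDC73* had 1636, 1983 and 1458 for wild-type, 1237, 2181 and 1409 for *top1Δ*, 1472, 1764 and 1178 for *top2ts* and 728, 1069 and 1096 for *top1Δtop2ts*. Both were called lower in *top1Δtop2ts*, *CTR9* by -0.95 ± 0.27 (adjusted p = 0.00295 from limma) and *CDC73* by -0.82 ± 0.25 (0.00498). *PAF1* (-0.63), *LEO1* (-0.69) and *RTF1* (-0.59) were also called, with adjusted p of 0.0285, 0.0141 and 0.0387. *SPT4* went from 1936, 1798 and 1597 to 1384, 1719 and 939 and *SPT5* from 1139.9, 1535 and 1106 to 968, 1248 and 984, and their changes of -0.44 and -0.23 did not pass (0.111 and 0.395). The 8 genes called were those whose *top1Δtop2ts* arrays all lay below wild-type, which 69.8% of all genes did. The share of all genes called lower was 62.6%, and the median change over all genes was -0.69, compared with -0.66 over the 10.

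The number of calls from spike-in scaling depended on single arrays, among them the one that stood apart, whose spike-ins were the brightest of the series (11.08). Without *top1Δtop2ts* replicate 3, 3 of the 10 genes were called lower, *SPT6* (-0.90), *SPT16* (-0.78) and *CDC73* (-0.93), against 46.8% of all genes. *CTR9* then stood at -0.50 (adjusted p = 0.109 from limma), compared with -0.95 when the array was kept, whereas *POB3* (-0.58), *LEO1* (-0.56) and *PAF1* (-0.51) lost their calls with smaller shifts (adjusted p = 0.0644, 0.0738 and 0.108 from limma). *RTF1*, the fifth call lost, went to -0.37 (0.248). Leaving out *top1Δtop2ts* replicate 1 instead also gave 3 calls, *SPT6*, *CTR9* and *LEO1*, against 52.9% of all genes, and each of wild-type replicates 1 and 2 left out gave 5, against 52.1% and 45.7%. The other arrays left out in turn gave 8 or 9. The same 8 genes as with all arrays had *top1Δtop2ts* replicates 1 and 2 below all wild-type arrays, as had 70.8% of all genes. Scaling and block together called 9 of the 10, *SPT4* (0.0302 from limma) included, against 72.7% of all genes, and without *top1Δtop2ts* replicate 3 they called 7, with *SPT4* and *RTF1* lost, against 68.2%.

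**Figure D2:**
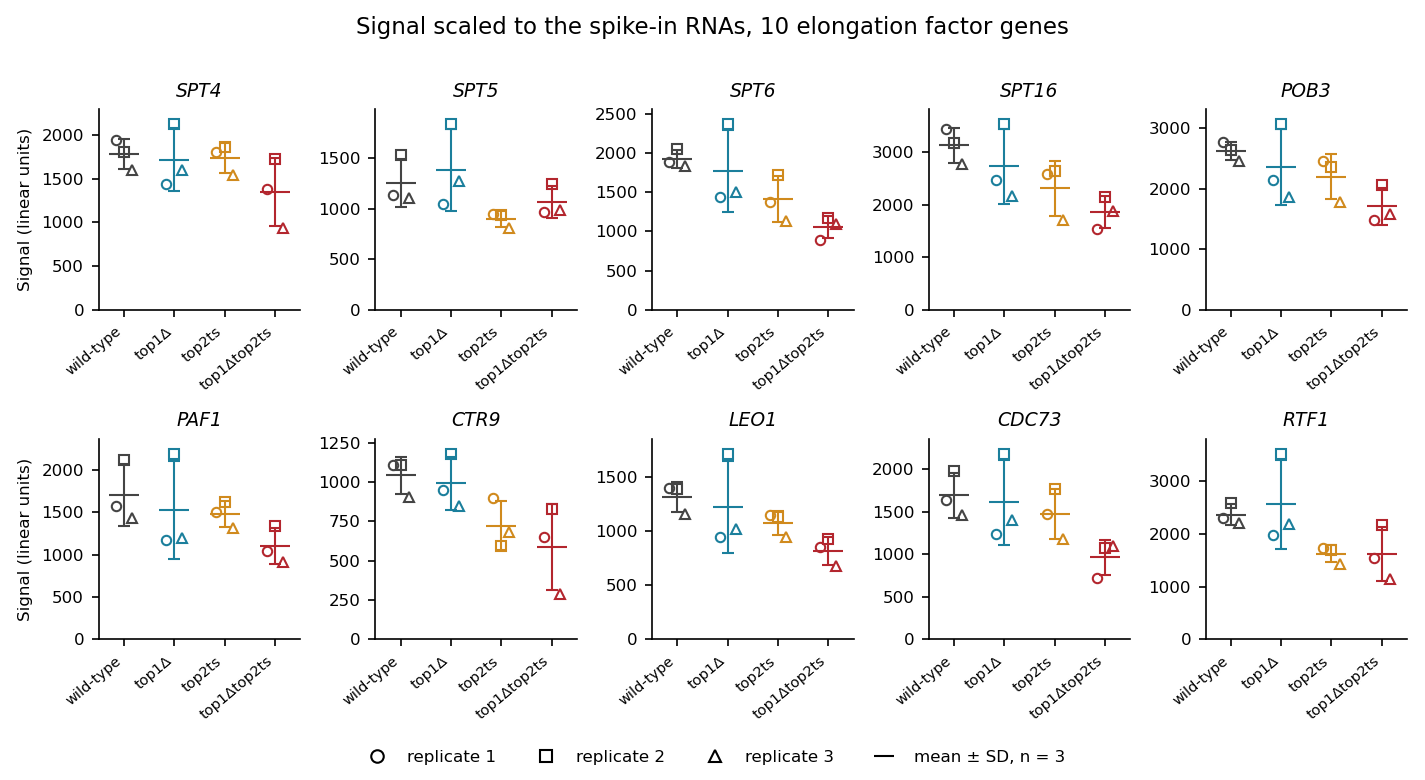
Signal of the 10 genes after each array was scaled to its spike-in RNAs (linear units), drawn as in the plot of deposited signals, with bars for the mean ± SD (n = 3 arrays). The 3 *top1Δtop2ts* arrays lie below the 3 wild-type arrays in 8 panels, all but *SPT4* and *SPT5*, and the triangle of *CTR9* (replicate 3) lies far below its other arrays.

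On the deposited and spike-in scales *SPT5* had the change nearest to 0 of the 10 genes in *top1Δtop2ts*, whereas with equal medians its change was the farthest from 0. When every array was brought to the same median over all genes, the question became whether a gene moved relative to the typical gene. Relative to its array median, the log2 signal of *SPT5* was -0.19, 0.15 and -0.011 in wild-type and 0.31, 0.44 and 0.51 in *top1Δtop2ts*, with no overlap. Its change with equal medians was 0.44 ± 0.11 (SE) and was called higher (adjusted p = 0.00626 from limma), the only call among the 10, in a fit that called 21.7% of all genes higher and 22.9% lower. *SPT5* was also the only one of the 10 with all 3 *top1Δtop2ts* arrays above wild-type, as 24.7% of all genes were. The call held without *top1Δtop2ts* replicate 3 (0.39, 0.0194 from limma). Its sign thus depended on the scale, being below 0 on the deposited and spike-in scales, where it was not called, and above 0 with equal medians.

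With equal medians, 5 of the 10 genes changed sign in *top1Δtop2ts*, *SPT4*, *SPT5*, *POB3*, *PAF1* and *RTF1*, and the median over the 10 was 0.0064. Without *top1Δtop2ts* replicate 3 the equal-median fit called *SPT4* (0.37) and *SPT5* higher, against 20.3% of all genes, and *SPT6* (-0.33) and *CDC73* (-0.36) lower, against 21.0%. *SPT6* and *SPT5* thus lay on opposite sides of 0 in that fit. The difference between *SPT6* and *SPT5* on the same array needs no scaling. It had a log2 change of -0.64 from wild-type to *top1Δtop2ts*, with -0.84, -0.50 and -0.57 in the same-numbered pairs. It was also lower in all 3 pairs of *top1Δ* (-0.26, -0.05 and -0.50) and of mixed sign in *top2ts* (-0.19, 0.46 and -0.24).

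In *top2ts*, the 10 genes also lay lower than in wild-type, and none passed the test. The log2 changes on the deposited scale were -0.03 for *SPT4*, -0.48 for *SPT5*, -0.47 for *SPT6*, -0.46 for *SPT16*, -0.27 for *POB3*, -0.19 for *PAF1*, -0.54 for *CTR9*, -0.30 for *LEO1*, -0.21 for *CDC73* and -0.55 for *RTF1*. limma called 0 of 10 (adjusted p = 0.995 for each, and 0 at an unadjusted p under 0.05), where 0.532% of all genes were called lower and 0.330% higher. Their median was -0.38 and that over all genes -0.22. Single arrays moved both, to -0.057 and 0.06 without *top2ts* replicate 2, to -0.14 and -0.04 without wild-type replicate 1, to -0.58 and -0.45 without *top2ts* replicate 1 and to -0.63 and -0.47 without wild-type replicate 2. In same-numbered pairs 29 of 30 differences were below 0, compared with 77.2% over all genes, the exception being *SPT4* in replicate 2. In all 3 pairs 9 of 10 genes were below 0, against 58.3% of all genes. *SPT4*, *PAF1* and *CDC73* changed sign with equal medians.

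After spike-in scaling the SD of the *top2ts* signals was smaller for all 10 genes, and that of the wild-type signals for all but *PAF1*. Of the 10 genes, 7 then had all 3 *top2ts* arrays below all 3 wild-type arrays, against 23.9% of all genes. These were *SPT5*, *SPT6*, *SPT16*, *POB3*, *CTR9*, *LEO1* and *RTF1*. *RTF1* went from 2302, 2581 and 2215 in wild-type to 1737, 1699 and 1437 in *top2ts* and *SPT5* from 1139.9, 1535 and 1106 to 947, 936 and 806. With spike-in scaling the adjusted p was 0.31 for *RTF1* and 0.37 for *SPT5*, so the separation of the arrays was not matched by a call. The block fit called 0 of 10, with *RTF1* at 0.0506 and *SPT5* at 0.0653 from limma, against 9.08% of all genes called lower. When *top1Δtop2ts* replicate 3 was left out of that fit, which changes only its estimate of the spread, *RTF1* was called, 1 of 10 against 10.9%.

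In *top1Δ*, the differences from wild-type were of both signs with all arrays, and their sign depended on single arrays. The log2 changes on the deposited scale were -0.04 for *SPT4*, 0.14 for *SPT5*, -0.13 for *SPT6*, -0.19 for *SPT16*, -0.15 for *POB3*, -0.18 for *PAF1*, -0.05 for *CTR9*, -0.12 for *LEO1*, -0.08 for *CDC73* and 0.10 for *RTF1*. limma called 0 of 10, also at an unadjusted p under 0.05, where 0.936% of all genes were called lower and 0.0551% higher, and the block fit called 0 of 10 against 12.4% lower. The 95% interval of *SPT16*, the lowest of the 10, ran from -0.96 to 0.58. In same-numbered pairs 17 of 30 differences were below 0, compared with 70% over all genes, and 0 genes were below 0 in all 3 pairs, against 39.8% of all genes, because all 10 were above 0 in replicate 2. The median was -0.10 over the 10 genes and -0.17 over all genes. It was -0.35 without wild-type replicate 2, with all 10 genes below 0, and 0.09 without wild-type replicate 1, with 1 below 0, where the medians over all genes were -0.41 and 0.02. Without *top1Δ* replicate 2 it was 0.0033 (-0.02 over all genes), without wild-type replicate 3 -0.016 (-0.11), and without *top1Δ* replicates 1 and 3 in turn -0.16 for both. With spike-in scaling 0 of the 10 had all 3 *top1Δ* arrays below wild-type, against 15.1% of all genes. The 8 genes below 0 on the deposited scale were above 0 with equal medians, so their direction depended on the scale.

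**Figure D3:**
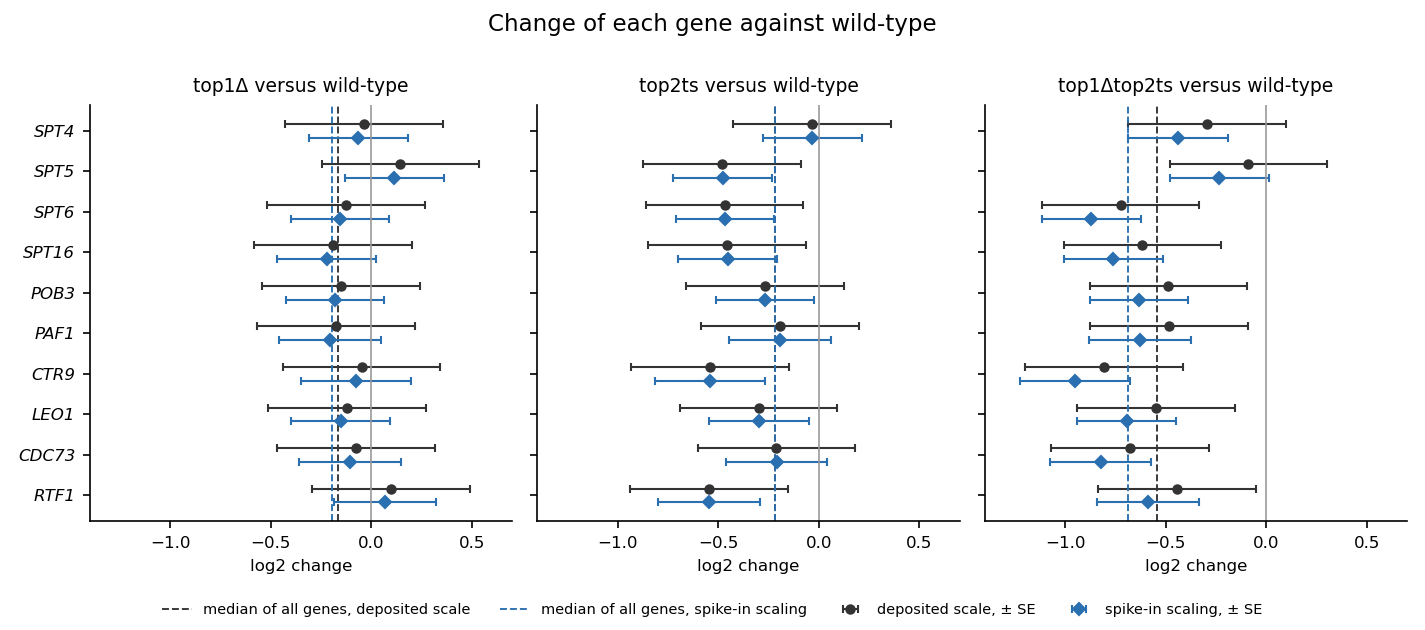
Log2 change of each gene against wild-type in the 3 mutants, with bars of 1 SE (n = 3 arrays against 3), on the deposited scale (circles) and after spike-in scaling (diamonds). Dashed lines mark the median change over 5449 genes, -0.54 and -0.69 in *top1Δtop2ts*, and *SPT5* lies farthest to the right of it there, at -0.09 on the deposited scale.

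*RTF1* and *SPT5* were the genes highest in *top1Δ* and lowest in *top2ts* on the deposited scale. Relative to the array median, *RTF1* had log2 signals of 0.83, 0.90 and 0.99 for wild-type, 1.13, 1.33 and 1.14 for *top1Δ*, 0.58, 0.56 and 0.65 for *top2ts* and 0.98, 1.24 and 0.73 for *top1Δtop2ts*. For *SPT5* the corresponding values were 0.22, 0.39 and 0.37 without Top1p and -0.29, -0.30 and -0.18 without active Top2p. In both genes every *top1Δ* array lay above all wild-type arrays, and in *RTF1* every *top2ts* array lay below them. With equal medians 3 of the 10 genes, *SPT4*, *SPT5* and *RTF1*, had all *top1Δ* arrays above wild-type (18.7% of all genes), *CTR9* and *RTF1* had all *top2ts* arrays below it (12.6%), and *SPT4* had them above it (15.9%). None of these single-mutant changes was called with equal medians, where *SPT5* came closest (0.34 in *top1Δ*, adjusted p = 0.0714 from limma).

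Over the 12 arrays, with array medians removed, the log2 signals of *SPT5* and *RTF1* had a Pearson correlation of 0.73, which was 0.93 over the 11 arrays without *top1Δtop2ts* replicate 3. Over all 12 the highest value among the 45 pairs of genes was that of the FACT subunits *SPT16* and *POB3*, 0.80, which 2.86% of all pairs of genes exceeded. *SPT6* followed *CDC73* (0.77) and *SPT16* (0.74). *SPT4* and its partner *SPT5* had a correlation of 0.03, and *SPT4* ran against *SPT6* and *CDC73* (-0.60 for each). Within the Paf1 complex the pairs were of both signs, from 0.63 for *LEO1* and *RTF1* to -0.45 for *CTR9* and *CDC73*. *CTR9* had 0.62 with *RTF1* and 0.46 with *LEO1*. *PAF1* had -0.06 to 0.25 with the other subunits, and *CDC73* had -0.07 with *LEO1* and -0.09 with *RTF1*. The value of *CTR9* and *CDC73* was -0.27 without *top1Δtop2ts* replicate 3. *CTR9* and *SPT5* went from 0.05 to 0.61 without that array, and *SPT4* and *SPT5* from 0.03 to 0.24, while *SPT16* and *POB3* stood at 0.77 and *SPT6* and *CDC73* at 0.75. The median over the 45 pairs was 0.18, compared with 0.01 over all pairs of genes. These are descriptions over arrays of 4 strains that share a labelling and scanning procedure, with *top1Δtop2ts* replicate 3 among them.

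Partners were also compared on the same array, which needs no scaling. The difference between *SPT16* and *POB3* had a log2 change of -0.13 in *top1Δtop2ts*, with -0.27, -0.21 and 0.09 in the pairs, and of -0.19 in *top2ts*, with -0.24, -0.10 and -0.22. That between *SPT4* and *SPT5* was 0.45 higher in *top2ts* than in wild-type, with 0.17, 0.77 and 0.41. Its pairs gave -0.31, -0.02 and -0.21 in *top1Δ* and were of mixed sign in *top1Δtop2ts*, with -0.25, 0.23 and -0.60. For *CTR9* and *CDC73* the values were 0.40 and 0.46 in replicates 1 and 2 of *top1Δtop2ts* and -1.25 in replicate 3, the array that stood apart, which gave the mean of -0.13 its sign. The difference between *RTF1* and *PAF1* was higher in all 3 pairs of *top1Δ* (0.19, 0.40 and 0.23) and lower in all 3 pairs of *top2ts* (-0.35, -0.21 and -0.50). Between *PAF1* and *CTR9* it was lower in all 3 pairs of *top1Δ* (-0.19, -0.04 and -0.16). In *top2ts* that difference was higher in all 3 pairs (0.25, 0.51 and 0.29), and in *top1Δtop2ts* its pairs gave 0.18, -0.23 and 1.02.

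**Figure D4:**
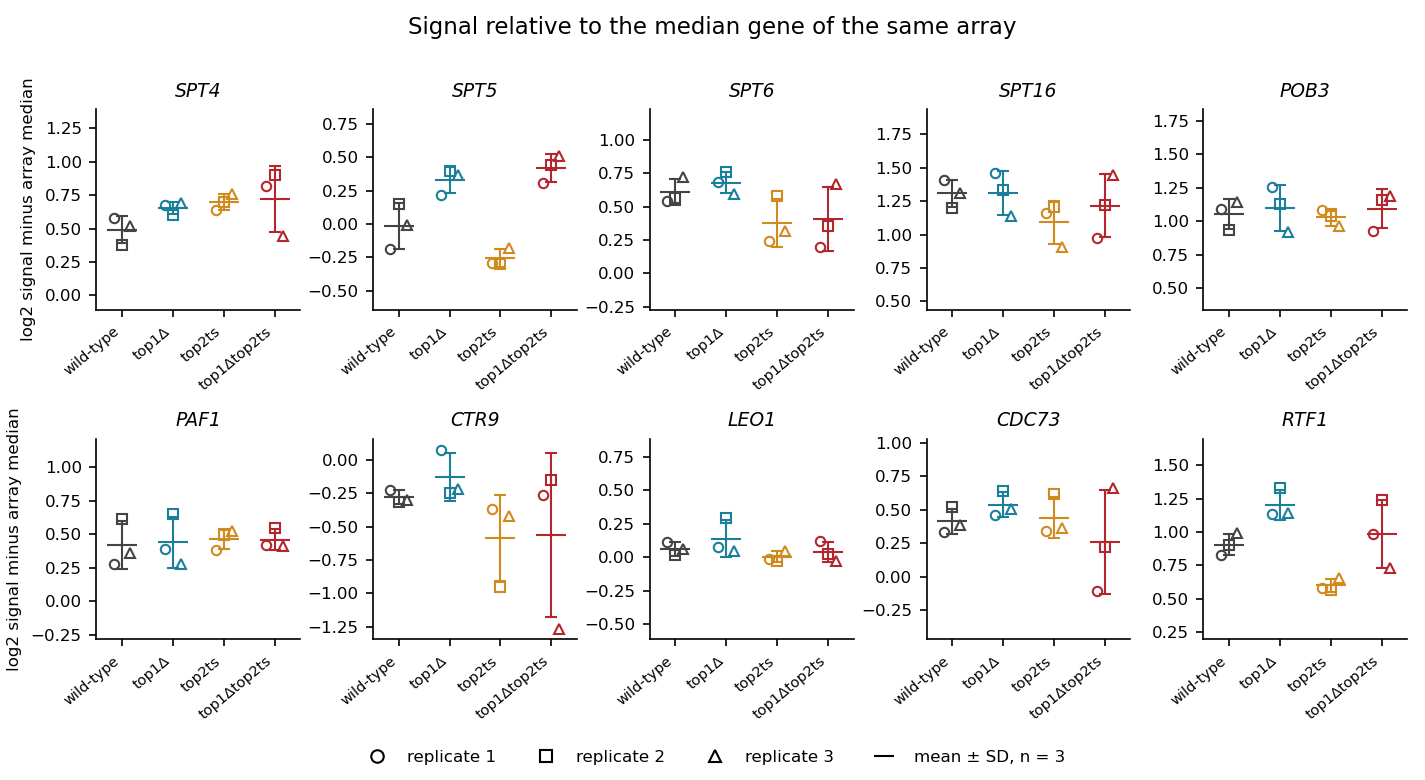
Log2 signal of the 10 genes minus the median of all genes on the same array, by strain, with symbols for replicates 1, 2 and 3 and bars for the mean ± SD (n = 3 arrays), every panel spanning the same height. *SPT5* lies above its wild-type arrays in *top1Δ* and *top1Δtop2ts* and low in *top2ts*, *RTF1* follows the same order in the single mutants, and replicate 3 of *top1Δtop2ts* (triangle) is far from its fellows for *CTR9* and *CDC73*.

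Whether loss of both enzymes gave more than the sum of the single losses was tested as the departure of *top1Δtop2ts* from additivity on the log2 scale. It ran from -0.39 for *CDC73* to 0.25 for *SPT5*, and 0 of the 10 were called, nor was any at an unadjusted p under 0.05 (limma, adjusted p of 0.971 and above, against 2.33% of all genes called). The median over the 10 was -0.12 and that over all genes -0.17, and leaving out 1 array moved the members' median from -0.35 (without *top2ts* replicate 2) to 0.16 (without wild-type replicate 2), so its sign was not settled. *SPT5* was above 0 in all 3 sets of same-numbered arrays (0.22, 0.25 and 0.27) and *PAF1* was below 0 in all 3 (-0.06, -0.22 and -0.07), the latter 1 of 10 against 42.7% of all genes. With equal medians and without *top1Δtop2ts* replicate 3, *CDC73* was called lower, 1 of the 10 against 15.1% of all genes.

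The members were set beside 57 further genes of elongation in 6 lists, of which 56 were measured. In *top1Δtop2ts* 8 of the 56 were called lower and 0 higher on the deposited scale, a share of 14.3% beside 15.1% of all genes. They included *SDC1*, *SWD1*, *BRE1* and *EAF3*, which write or read the histone marks that the Paf1 complex promotes. *SDC1*, a subunit of the COMPASS methyltransferase, went from 1504 ± 433 (SD, n = 3 arrays) to 390.4 ± 46.9, which is -1.91 on the log2 scale (adjusted p = 5.97e-05 from limma). *SWD1*, of the same complex, changed by -1.36 (0.00808), *EAF3*, which reads histone methylation, by -1.12 (0.0345) and *BRE1*, the ubiquitin ligase for histones, by -1.10 (0.0366). *RCO1*, a partner of *EAF3* in a histone deacetylase complex, was the fifth of the 16 genes of this list to be called (-1.08, 0.042 from limma) and is named because the count is small, after its value was seen. The median over the 16 was -0.57, beside -0.54 over all genes, with 13 below 0 and the highest at 0.26. With equal medians 4 of the 16 were called lower and 4 higher, against 22.9% and 21.7% of all genes.

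The other calls were *NHP6A*, an HMG protein that works with FACT (-1.36, adjusted p = 0.00821 from limma), *HIR2*, of a histone chaperone complex (-1.12, 0.0334), and *RTR1*, a phosphatase of the polymerase tail (-1.23, 0.0175). *NHP6A* thus passed on the deposited scale, with signals of 1842 ± 632 in wild-type and 705.5 ± 194 in *top1Δtop2ts*, where the FACT subunits it works with did not. Whether it differed from them was not tested. Of THO and TREX (7 genes), Elongator (5 measured) and the termination factors (7), 0 were called on the deposited scale, where 15.1% of all genes were called lower. Their medians were -0.38, -0.49 and -0.43, beside -0.54 over all genes. With spike-in scaling 4, 3 and 3 of them were called lower, beside 62.6% of all genes. The log2 changes were -0.57 for *SUB2*, an RNA helicase of TREX, -0.21 for *YRA1*, an export adaptor, -0.49 and -0.82 for *ELP3* and *ELP2* of Elongator, and -0.17 and 0.12 for *NRD1* and *RAT1*, which act in termination. Without *top1Δtop2ts* replicate 3, 5 of the 56 were called lower (8.93%, beside 10.3% of all genes), *HIR2*, *BRE1* and *EAF3* being lost. With spike-in scaling 31 of the 56 were called lower (55.4%, beside 62.6% of all genes) and with the block 32 (57.1%, beside 62.7%). With equal medians 10 were lower (17.9%, beside 22.9% of all genes) and 11 higher, where 21.7% of all genes were called higher. In *top1Δ* and in *top2ts* 0 of the 56 were called on the deposited scale.

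**Figure D5:**
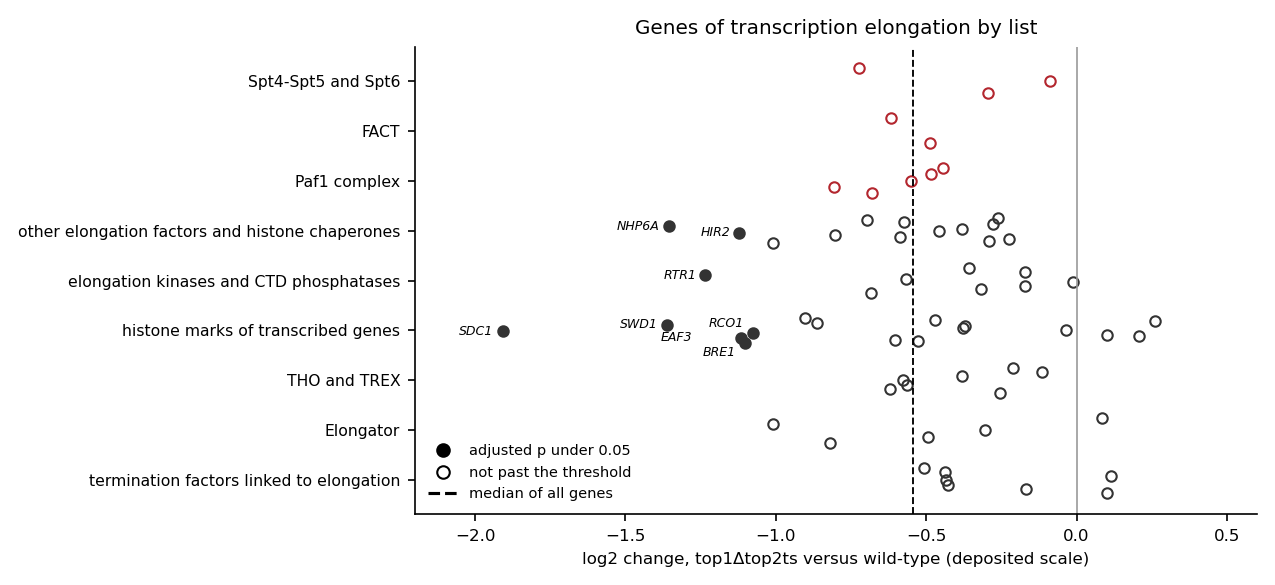
Log2 change in *top1Δtop2ts* against wild-type on the deposited scale for the 10 genes (top 3 rows, red) and the 56 measured genes of 6 further lists, 1 point per gene, filled where the adjusted p from limma was under 0.05. The 8 filled points belong to histone marks, to other elongation factors and chaperones and to the phosphatase *RTR1*, and the dashed line marks the median over all genes, -0.54.

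Genes of dividing cells were also called lower in *top1Δtop2ts*. Of 10 markers of S, G2 and M phase 7 were called lower on the deposited scale, against 15.1% of all genes. Their summed signal was 2317 to 4018 in *top1Δtop2ts* against 9180 to 21118 in wild-type, 10082 to 17853 in *top1Δ* and 6779 to 25140 in *top2ts*. Among them were the cyclin *CLB1* (-2.78), the histone genes *HTA2* (-2.76) and *HTB2* (-2.75) and *SWI5* (-2.36). In the summed signal the *top1Δtop2ts* arrays did not overlap with those of any other strain. Of all single genes, 28.7% had their *top1Δtop2ts* arrays all below the wild-type arrays on the deposited scale. The part of these cell-cycle differences in the levels of the elongation genes was not tested.

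The genes whose pattern over the 12 arrays was most like the mean of the 10 members, after array medians were removed, were *NUP49*, of the nuclear pore (Pearson correlation 0.92), *UTP14*, of ribosomal RNA processing (0.91), *DIS3*, of the exosome (0.91), *DBP10*, an RNA helicase (0.90), and *RSM23*, of the mitochondrial ribosome (0.90). Their log2 changes on the deposited scale were -0.51 to -0.61 in *top1Δtop2ts*, -0.41 to -0.62 in *top2ts* and -0.01 to 0.07 in *top1Δ*. The mean of the members itself stood 0.48 to 0.52 above the array median in wild-type, 0.55 to 0.69 in *top1Δ*, 0.38 to 0.39 in *top2ts* and 0.44 to 0.60 in *top1Δtop2ts*, so that relative to the median gene the *top2ts* arrays lay below all others, while *top1Δ* and *top1Δtop2ts* overlapped. Between coding length and log2 change in *top1Δtop2ts* the Spearman correlation was -0.38 over the 10 genes and -0.067 over all genes, as a description across genes.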

How the data were processed

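RNA of 4 strains was measured on 12 arrays. The deposited values were linear signal intensities from MAS5, run by the authors (version and genome build not given in the sources used here). The methods describe an external normalization to spike-in RNAs, yet spike-in levels still differed between arrays in the table. Of 10928 probe sets, 5028 were at 0 on every array and 5498 were paired with 1 gene, while 1 was paired with several and 3683 were not listed in the probe table. Probe sets of a gene were averaged as log2 values, which gave 5449 genes, and 4 values of 0 were set to 0.1. No gene was removed for low signal. limma 3.58.1 (R 4.3.3) was run on log2 values of the 12 arrays together, leaving 8 residual degrees of freedom. Its prior variance was 0.231, with infinite prior degrees of freedom, so that each change on the deposited scale had the same standard error. p-values were two-sided and adjusted over all genes by the method of Benjamini and Hochberg, with a threshold of 0.05. Python 3.11.15 was used for summaries. The limma step was tested on simulated data.

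Spike-in scaling brought the mean log2 signal of 36 poly-A probe sets (dap, lys, phe and thr) to the same level on every array. The study describes independent sets of experiments, and a shared replicate number was read as such a set, although the labels never say so. Deviations from strain means correlated above 0.1 in 10 of 18 pairs of arrays with the same number, but not between wild-type and *top1Δtop2ts* (0.02, -0.01 and -0.03). A correlation over genes takes out a shift common to a whole array, so these values cannot show whether strains share the replicate 2 step. The median log2 signal over all genes was lowest in replicate 2 in both of these strains, at 9.73 in wild-type and 9.26 in *top1Δtop2ts*. The labels call the replicates biological. The 10 genes and all lists were chosen with earlier results of these data known. Named were the 10 genes, *TOP1* and *TOP2*, for each list up to 4 of the genes called in *top1Δtop2ts* with the largest changes or else its 2 brightest, and the 5 genes closest to the members' mean profile. Alternatives were other scalings, the block, an intensity trend, a pseudocount of 16, a filter on low signal, the brightest probe set of a gene, fits of the compared arrays alone and each array left out.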

Additional observations from a re-analysis of the deposited data

How the results depend on the processing

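On the deposited scale without a block 0 of the 10 genes were called in any comparison. An intensity trend, a pseudocount, a filter on low signal, the brightest probe set and fits of the compared arrays alone left these counts unchanged. In *top1Δtop2ts* the count was 8 with spike-in scaling, 8 with the replicate block, 1 with equal medians and 1 with quantile normalization, where *SPT5* was called higher (0.44 and 0.47, beside 21.7% and 23.9% of all genes). Leaving out 1 array gave 0 to 2 calls, the 2 without wild-type replicate 2. Alternatives chosen after seeing the data gave 9 for scaling with the block (72.7% of all genes lower), 7 without the replicate 2 arrays (2723 of 5449 genes) and 9 when these were also spike-in scaled (66.4%), and leaving out 1 array with spike-in scaling gave 3 to 9, among them 5 without wild-type replicate 1 or 2 and 8 without wild-type replicate 3 or any array of *top1Δ* or *top2ts*. Without *top1Δtop2ts* replicate 3 the count was 3 with spike-in scaling, 7 with the block, 7 with both and 4 with equal medians (*SPT4* at 0.37 and *SPT5* at 0.39, both turned upward), and 1 each for *top2ts* with the block (also when scaled) and for additivity with equal medians or with scaling and block. Beyond these the block changed no call of a member.

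The median over the 10 genes in *top1Δtop2ts* was 0.0064 with equal medians (0.036 without replicate 3), 0.038 with quantile normalization and -0.77 with spike-in scaling without the replicate 2 arrays, and leaving out 1 array gave -0.83 (without wild-type replicate 2) to -0.32, or with spike-in scaling -0.81 to -0.53 (-0.76 without wild-type replicate 3). In *top2ts* it was -0.14 with equal medians, with or without *top1Δtop2ts* replicate 3, and -0.15 with quantile normalization, and leaving out 1 array gave -0.63 to -0.057 (-0.23 with spike-in scaling without *top2ts* replicate 3). In *top1Δ* leaving out 1 array gave -0.35 to 0.09, or -0.37 to -0.01 with spike-in scaling. The departure from additivity ran from -0.35 to 0.16, and with spike-in scaling it was -0.29 without wild-type replicate 2, -0.37 and -0.35 without *top1Δ* replicates 1 and 3, -0.33 without *top2ts* replicate 3 and -0.35 without *top1Δtop2ts* replicate 2. Of the 10 genes, those below all wild-type arrays numbered 8 in *top1Δtop2ts* and 7 in *top2ts* with spike-in scaling (69.8% and 23.9% of all genes). In *top2ts* they numbered 2 with equal medians and 3 with quantile normalization (12.6% and 15.3%). For the 56 further genes calls in *top1Δtop2ts* were 31 with spike-in scaling, 32 with the block, 21 with equal medians and 25 with quantile normalization. Of all genes 65.1%, 67.7%, 44.7% and 47.3% were called there in either direction. In *top1Δ* the 56 had 1, 2, 4 and 4 calls in that order, beside 6.59%, 13%, 9.38% and 8.22% of all genes. In *top2ts* they had 2 with the block and 1 with quantile normalization, beside 10.2% and 6.72% of all genes. Why the counts differ was not tested beyond the values given. With 3 arrays a strain and a common standard error of 0.39, log2 changes of this size did not pass on the deposited scale without the block. With the block, on the same values, 8 of the 10 genes were called lower in *top1Δtop2ts*, beside 62.7% of all genes.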
